A study of Neurospora crassa with 10 samples.

Results

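Overlapping or closely packed neighbouring genes were examined in Neurospora crassa, a filamentous fungus with a compact genome. All genes of the 4 deposited expression lists were laid in genome order, and 2 consecutive genes formed a close pair when the gap between them, the start of the second minus the end of the first, was below 150 bp. Of 9722 consecutive pairs, 1908 (19.6%) met this limit, and they involved 3557 of the 9729 genes (36.6%). The limit uses positions only, so the expression list of a gene did not enter the rule for a close pair. The rule was chosen with earlier results of these data known. The 7814 pairs with wider gaps and the 6172 genes in no close pair served for comparison.

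The series itself addressed the turnover of histone H3 in germinated conidia. All 5 groups, the wild type included, carried Pvvd::hH3-3xFLAG, a FLAG-tagged histone H3 under the light-induced vvd promoter, with his-3+; the mating type is labelled mat a except for the ∆dim-5 and ∆hpo strains, where it is left as a question mark. The 5 groups of 2 libraries were the strains ∆dim-2::hph, ∆dim-5::bar, ∆hda-1::hph and ∆hpo::hph, which lack the DNA methyltransferase, the histone H3K9 methyltransferase, a histone deacetylase and heterochromatin protein HP1, and the wild type without a deletion. Conidia germinated in darkness over 18 h at 32 °C, spent 3 h in 100 mM hydroxyurea, which blocks DNA replication, and then received 2 min of 465 nm light before fixation in 0.5% formaldehyde and FLAG pulldown. Values of these 10 libraries were not analysed here. The results below rest on wild-type features, namely the 4 gene lists (lowest 25%, 25-50%, 50-75% and highest 25% of expression) and 346 H3K9me3 domains; this histone mark is typical of constitutive heterochromatin.

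In fungi, neighbouring transcription units commonly lie close together, and the untranslated ends of transcripts from facing genes can run into each other. Genes can be packed head to head, sharing the region from which both are transcribed, or tail to tail, sharing their ends, or in tandem. Transcripts that overlap on opposite strands can pair, and N. crassa has an active RNA interference machinery. Strands were not used here, so head-to-head, tail-to-tail and tandem pairs were not separated. The lists carry no values or replicates, read depth is unknown, and neighbouring pairs along a genome are not replicates of each other, so no test was run. Intervals given are 95% intervals that cover counting error only and treat genes or pairs as independent.

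Most close pairs overlapped. Of the 1908 pairs, 1130 (59.2%) shared bases, 11 abutted with a gap of 0, and the remaining 767 were separated by at least 1 bp but under 150 bp. In 1060 overlapping pairs the overlap was partial, with a median of 161 shared bases (interquartile range 73 to 427.5, up to 3481). These included 365 overlaps under 100 bp and 240 of 500 bp or more. In 70 pairs the second gene lay wholly inside the first. The outer genes had a median length of 3655 bp and the inner genes of 1061 bp. Close pairs that did not overlap had a median gap of 78 bp, against 908 bp for the wider pairs.

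**Figure D1:**
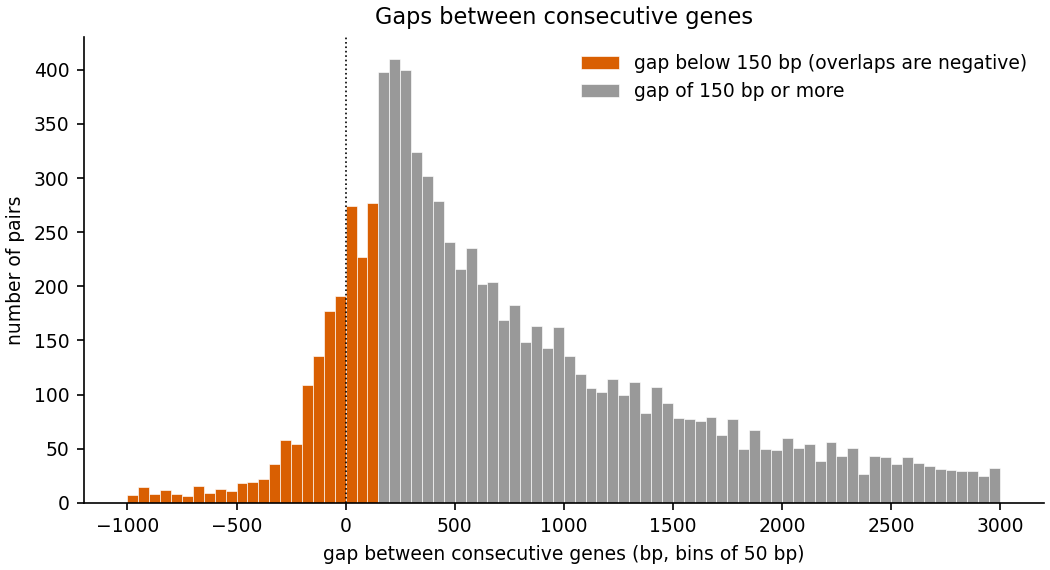
Number of consecutive gene pairs by the gap between them in bp, in bins of 50 bp, with overlaps as negative gaps. Pairs below 150 bp are orange and wider pairs are grey. The fullest bin starts at 200 bp and holds 410 pairs; 205 pairs below -1000 bp and 1107 at 3000 bp or more lie outside the plotted range.

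The pairs that shared the most bases lay on linkage groups IV, V and VI. On IV, NCU09637 (8110 to 19545, highest list) contained pks-5, a polyketide synthase gene of 8089 bp (11075 to 19163, 25-50% list). NCU08689 (4090769 to 4095378, 50-75% list) and NCU08688 (4091898 to 4097300, 25-50% list) on the same linkage group shared 3481 bp. NCU07954 (1228791 to 1233941) contained pod-1 (1228796 to 1232106) over 3311 bp, and both were in the highest list. On VI, NCU07126 (57463 to 60475, 50-75% list) and NCU07127 (57481 to 60490, 25-50% list) were listed over nearly the same 2995 bp. On V, pro-3, a gene of proline synthesis (3970912 to 3976406), and mcl-1 (3973437 to 3976684) shared 2970 bp and were both in the 50-75% list. In 3 of these 5 pairs the genes were in different lists. The sources used here do not give how reads in shared bases were assigned when genes were ranked, and the part of that step in the results on overlapping genes was not tested.

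At the limit itself, the widest close pairs had a gap 1 bp short of it. Among them, NCU09094 (lowest list) stood beside NCU09095 (25-50% list), NCU01878 (highest list) beside NCU01877 (lowest list), and NCU00628 (50-75% list) beside NCU00627 (highest list). The first pairs outside it had a gap of 150 bp. In them, NCU02150 and cyt-1 were both in the 50-75% list, NCU02002 (25-50% list) stood beside NCU02001 (50-75% list), and NCU03232 (25-50% list) beside NCU03233 (highest list).

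Genes of the lowest expression list were scarce in close pairs. They made up 484 of the 3557 genes in close pairs (13.6%, interval 12.5 to 14.8), against 1949 of the 6172 other genes (31.6%, 30.4 to 32.8), where each list holds 25% of all genes. The difference was -18.0 percentage points (interval -19.6 to -16.3). The other lists each had a larger share among genes in close pairs than among the others. That share was 29.6% against 22.3% for the 25-50% list, 29.7% against 22.3% for the 50-75% list, and 27.1% against 23.8% for the highest list (difference 3.30 points, 1.51 to 5.12). Seen from the lists, a close pair held 39.6% of highest-list genes, 43.4% of 50-75% genes, 43.3% of 25-50% genes and 19.9% of lowest-list genes, where it held 36.6% of all genes. Membership therefore did not climb with expression through all lists; it was near 40% or above in the upper 3 lists and low in the lowest.

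The scarcity was found on every linkage group. The lowest list made up 11.6% of genes in close pairs against 25.8% of other genes on I, 13.2% against 29.5% on II, and 11.0% against 33.5% on III. On IV it was 14.0% against 33.5%, and on V 12.6% against 31.03%. On VI it was 17.6% against 34.6% and on VII 19.7% against 38.2%. Linkage group VII thus had the highest lowest-list share in both classes of genes, and the gap between the classes ranged from -14.2 points on I to -22.6 on III.

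The lowest-list share followed the distance to the nearest neighbour beyond the 150 bp limit as well. When each gene was classed by the smaller of its gaps to both neighbours, the lowest list made up 11.7% of genes that overlapped a neighbour and 16.8% of those with a gap from 0 to under 150 bp. It made up 20.3% from there to under 500 bp, 37.5% from 500 to under 1000 bp, 45.0% from 1000 to under 2000 bp and 43.5% at 2000 bp or more. The 50-75% list went the other way, from 31.03% of overlapping genes to 15.3% at 2000 bp or more. The highest list varied least, between 21.5% and 28.2%. Genes with a close neighbour on both sides were fewer still in the lowest list, at 20 of 259 (7.72%, interval 5.05 to 11.6).

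**Figure D2:**
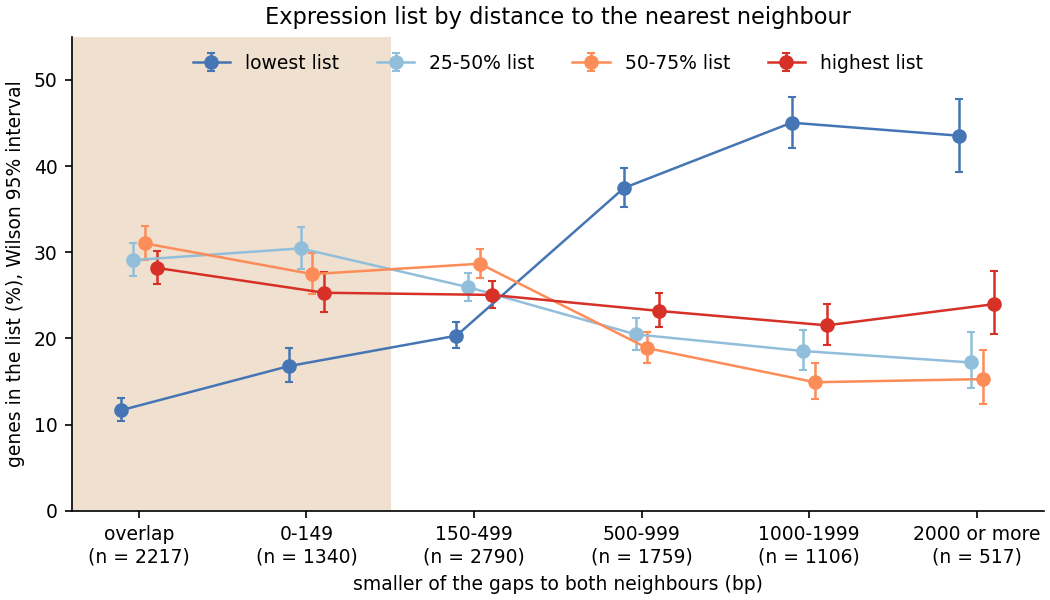
Percent of genes in each expression list by the smaller of a gene's gaps to both neighbours (bp), with Wilson 95% intervals and the number of genes under each class; the shaded classes are genes in close pairs. The lowest list goes from 11.7% of overlapping genes to 43.5% of genes with 2000 bp or more to either neighbour, and the highest list stays between 21.5% and 28.2%.

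The files hold no expression values, but their row order appears to be ranked. The rows of gpd-1 and tef-1, which encode the glycolytic enzyme glyceraldehyde-3-phosphate dehydrogenase and a translation elongation factor, were rows 2 and 13 of the highest list, and the last 440 rows of the lowest list were in order of locus tag. This reading is not stated in the labels. Along this order, cut into 40 bins, the share of genes in close pairs was 32.8% to 48.6% in the first 30 bins, which hold the upper 3 lists. It was 28.4% and 32.5% in the first 2 bins of the lowest list and 13.6% to 20.6% in its last 8 bins. The share was thus lowest in the last 8 bins. The second bin of the lowest list (32.5%, interval 26.9 to 38.6) hardly differed from the lowest of the first 30 bins (32.8%, 27.2 to 38.9). Of the 440 rows in locus tag order, 71 (16.1%, interval 13.0 to 19.9) were in a close pair, against 413 of the other 1993 rows of that list (20.7%, 19.0 to 22.6).

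**Figure D3:**
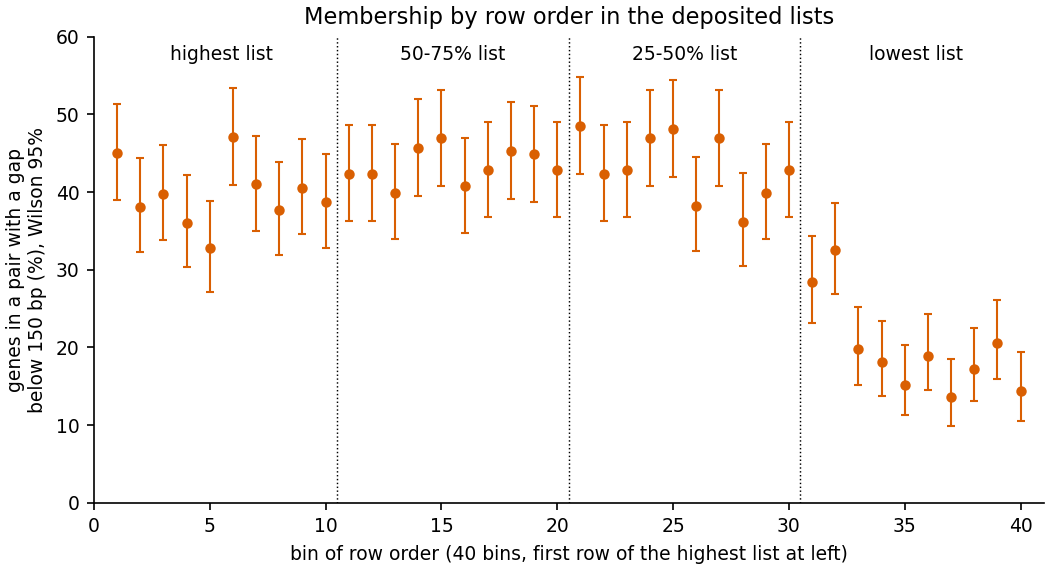
Percent of genes in a close pair (with Wilson 95% intervals) by row order in the deposited lists, from the first row of the highest list at the left to the last row of the lowest list at the right, in 40 bins; dotted lines mark the borders of the lists to within a few genes. The first 30 bins lie between 32.8% and 48.6%, and the last 8 between 13.6% and 20.6%.

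Both genes of a close pair shared an expression list less often than both genes of a wider pair. They did so in 566 of 1908 close pairs (29.7%, interval 27.7 to 31.8), against 2631 of 7814 wider pairs (33.7%, 32.6 to 34.7) and 32.9% of all pairs. The difference was -4.01 percentage points (interval -6.27 to -1.67). It was negative on all 7 linkage groups, from -1.58 points on I to -9.99 on VI, and the interval lay below 0 on II and VI alone. When lists at most 1 step apart counted as shared, the difference was 0.162 points (-2.16 to 2.42), so the direction turned.

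Sharing was most frequent at intermediate gaps. It was 29.5% in overlapping pairs, 29.9% in the other close pairs, 31.2% at gaps from 150 to under 500 bp, 35.9% from 500 to under 1000 bp, 37.0% from 1000 to under 2000 bp and 31.5% at 2000 bp or more. Among partial overlaps it was 32.1% under 100 shared bases, 32.97% from 100 to under 500 and 23.8% at 500 or more (interval 18.8 to 29.5, 240 pairs). With pairs that held a lowest-list gene left out, sharing was 36.9% in overlapping pairs and 35.2% in the other close pairs. It was then 34.4% from 150 to under 500 bp, 38.1% to under 1000 bp, 40.2% to under 2000 bp and 35.0% above. Overlapping pairs were then no longer the lowest. Over the row order read as a rank, Spearman's rho between the genes of a pair, given as a description, was 0.037 in the 1908 close pairs and 0.231 in the 7814 wider pairs. It was -0.017 in overlapping pairs and 0.299 at gaps from 500 to under 1000 bp. The last 440 rows of the lowest list run in locus tag order, which by itself gives genomic neighbours near rows, and pairs of 2 lowest-list genes are more frequent among wider pairs. Without pairs that held a lowest-list gene, rho was 0.054 in close pairs, 0.095 in wider pairs and 0.101 at gaps from 500 to under 1000 bp. Pairs share genes with their neighbours, so the values are not independent.

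Pairs of 2 lowest-list genes were rare among close pairs. Both genes were in the lowest list in 42 close pairs (2.20%), against 1005 wider pairs (12.9%). Without any pair that held a lowest-list gene, a setting chosen after the data were seen, sharing was 36.2% in 1446 close pairs (interval 33.8 to 38.8) and 36.4% in 4464 wider pairs (35.0 to 37.9), a difference of -0.187 points (-3.01 to 2.69). The makeup of the lists alone would give 26.9% sharing in close pairs and 25.1% in wider pairs, if the lists of first and second genes combined freely. The observed share exceeded this by 2.79 points in close pairs and by 8.56 points in wider pairs.

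The neighbours of a lowest-list gene differed between the classes. In close pairs, its partner was a lowest-list gene in 16.7% of cases (interval 13.7 to 20.2), a 25-50% gene in 29.0% and a highest-list gene in 27.2%. In wider pairs, the partner was a lowest-list gene in 46.2% (44.7 to 47.6) and a highest-list gene in 16.9%. A highest-list gene had a highest-list partner in 28.4% of close pairs (25.8 to 31.3) and in 32.6% of wider pairs (31.1 to 34.1). Combinations of a lowest-list and a highest-list gene made up 137 close pairs (7.18%, 6.11 to 8.43), against 737 wider pairs (9.43%, 8.80 to 10.1) and 8.99% of all pairs. Set against free combination, such extreme pairs stood at 1.00 of the expected number among close pairs and at 0.690 among wider pairs.

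**Figure D4:**
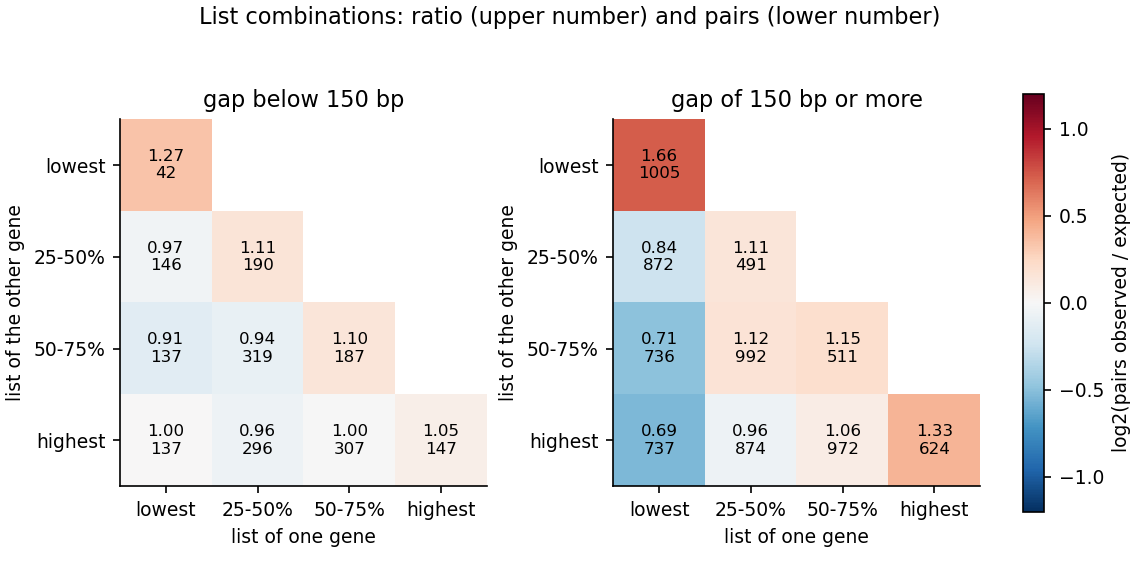
Ratio of observed to expected pairs (upper number) and observed pairs (lower number) for each combination of expression lists, with close pairs at the left and wider pairs at the right; colour is log2 of the ratio, and the expected number assumes that the lists of both genes combine freely within the class. Ratios lie between 0.910 and 1.27 in close pairs, and between 0.690 and 1.66 in wider pairs.

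Of the extreme combinations, those with the most shared bases included a gene inside another. On I, rtg2 (highest list) contained NCU08612 (lowest list) over 2881 bp. On VII, NCU02195 (lowest list) and NCU02194 (highest list) shared 2253 bp, and on IV, NCU07895 (highest list) and NCU07894 (lowest list) shared 1905 bp. NCU07894 was the longer of its pair, at 6060 bp against 2125 bp.

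Nested genes were mostly in the lowest list. Of the 70 inner genes, 54 were in the lowest list (77.1%, interval 66.1 to 85.4), and the highest list held 4. Of the 70 outer genes, 31 were in the highest list and 0 in the lowest. Long genes are rare in the lowest list, and weighted to the lengths of the outer genes, 9.02% of genes in no close pair were in it. The highest-list share at these lengths was not worked out. The outer gene had the higher list in 59 pairs, both shared a list in 9, and the inner gene had the higher list in 2. An outer gene is always the longer of its pair. Where lists differed, the longer gene also had the higher list in 67.9% of partial overlaps and 70.6% of wider pairs. Inner genes were short, and the lowest list holds many short genes. Weighted to the lengths of the inner genes, 62.2% of genes in no close pair were in the lowest list, against the 77.1% observed.

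Genes that shared only part of their length were rarely in the lowest list. Of the 1154 genes that shared under 10% of their length with a neighbour, 6.85% were in the lowest list (interval 5.53 to 8.45), where genes of like length in no close pair gave 23.9%. From 10% to under 25% of the length it held 9.84% of 447 genes, against 33.2% at like length, and from 25% to under 50% it held 9.52% of 294 genes, against 25.9%. From 50% to under 100% it held 21.4% of 252 genes (16.8 to 26.9), against 32.9% at like length. Only the wholly contained genes were above the share for their length. The highest list held 32.7% of genes that shared from 25% to under 50% of their length and 14.3% of those that shared from 50% to under 100%.

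Genes in close pairs had a median length of 2110 bp (interquartile range 1560 to 2901), against 2145 bp for other genes (1380 to 3120), a difference of -35 bp (interval -98.8 to 27.9). With 500 bp as the limit for a close pair the direction turned, at 112.5 bp (47.9 to 181.3). Within the lists they differed more. The median was 1972 bp in close pairs against 2233.5 bp in the 25-50% list, 2298 against 2739.5 bp in the 50-75% list and 2513 against 2877 bp in the highest list. In the lowest list it was 1290.5 bp against 1198 bp. Without the lowest list, an alternative chosen after the data were seen, the difference was -333 bp (-397 to -273).

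Membership was most frequent at middle lengths. In the upper 3 lists combined, a close pair held 29.3% of genes under 700 bp (12 of 41), 45.0% of those from 700 to under 1000 bp and 48.9% of those from 1000 to under 1500 bp. The share was 52.6% from 1500 to under 2000 bp, 42.1% from 2000 to under 3000 bp, 35.0% from 3000 to under 5000 bp and 28.0% at 5000 bp or more. In the lowest list the share lay between 17.0% and 22.2% in all 7 length classes. The longest classes held few of its genes. The 17.0% was 16 of 94 genes from 3000 to under 5000 bp. The 22.2% was 2 of 9 genes at 5000 bp or more (interval 6.32 to 54.7). From 1500 to under 2000 bp, 20.0% of lowest-list genes (81 of 405) and 52.6% of the others (745 of 1417) were in a close pair, so genes of like length differed between the lists.

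The gene models of the lowest list differed from the rest in a second respect. The listed length was a multiple of 3 in 43.0% of its genes (interval 41.04 to 44.97), against 33.4%, 33.9% and 32.1% in the 25-50%, 50-75% and highest lists. Within the lowest list it was 44.2% in close pairs and 42.7% elsewhere. A length in multiples of 3 is what a model of coding sequence alone, without introns, gives. Whether each listed interval includes untranslated ends was not tested, nor was its part in the gaps.

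Late locus tags, NCU10000 and above, made up 377 of the 3557 genes in close pairs (10.6%), against 577 of the other genes (9.35%) and 9.81% of all named genes. In the lowest list they made up 24.8% of genes in close pairs and 16.0% of the others, and in the highest list 4.26% and 4.70%. Of the 70 nested inner genes 23 had such a tag, and of the outer genes 4.

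The share of close pairs differed at the next positions along the linkage group. The pair that directly followed a close pair was close in 259 of 1906 cases (13.6%, interval 12.12 to 15.2), against 1648 of 7809 cases after a wider pair (21.1%, 20.2 to 22.0). At the next pair but 1 the order turned, with 25.6% after a close pair (23.7 to 27.6) and 18.2% after a wider pair (17.3 to 19.0). At the third pair it was 22.0% and 19.0%, and at the fourth 19.3% and 19.7%. This comparison was chosen after the data were seen.

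**Figure D5:**
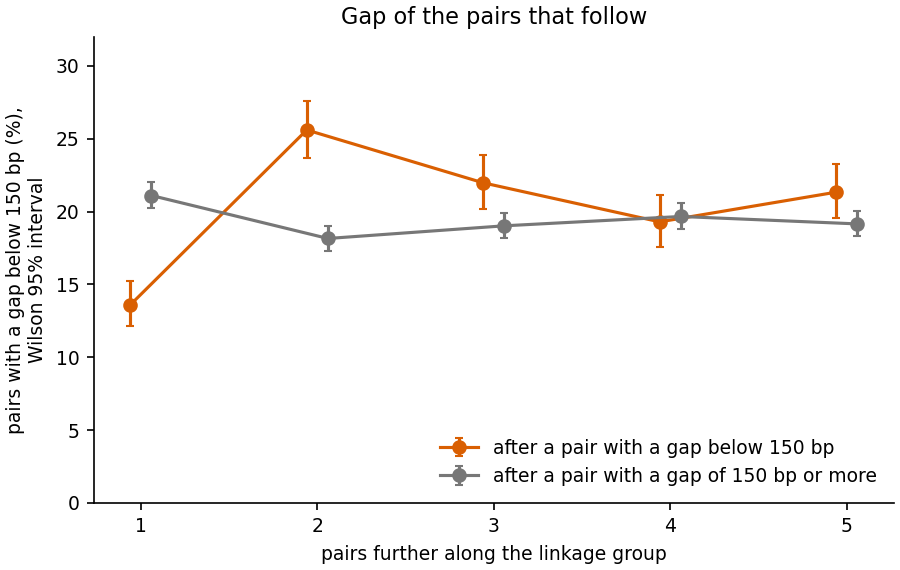
Percent of pairs with a gap below 150 bp among the pairs that lie 1 to 5 positions further along the linkage group, with Wilson 95% intervals, after a close pair (orange) and after a wider pair (grey). Directly after a close pair 13.6% are close, and 25.6% at the next position, against 21.1% and 18.2% after a wider pair.

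Longer runs of close pairs were few. The 1908 pairs fell into 1649 runs, of which 1436 held 2 genes, 176 held 3 genes, 29 held 4 and 7 held 5, with 1 run of 6. The run of 6 lay on III (2640035 to 2652106, 12.07 kb) and comprised NCU00105, pro-4, NCU00107, the kinase gene stk-13, NCU00109 and NCU00110, with 3 genes in the 50-75% list and 3 in the 25-50% list. On I, NCU02565 to NCU10788 (2747997 to 2760497) formed a run of 5, in which NCU02565 was in the 50-75% list, NCU02566 in the highest and the other 3 in the 25-50% list. Another run of 5 on I (4515689 to 4526134), from NCU03091 to NCU03095, alternated between the highest and the 25-50% list and ended with 2 genes of the 25-50% list. Of the 213 runs of 3 or more genes, 14 had all genes in 1 list. A list common to 3 or more genes is a stricter condition than a list common to 2, which 29.7% of all close pairs met. No expected number of such runs was worked out.

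Close pairs were spread over all linkage groups. Their genes lay slightly further from heterochromatin, a distance that is not independent of the gap limit. Genes in close pairs made up 40.0% of genes on I (interval 38.1 to 42.0), between 33.5% and 37.6% on II to VI, and 32.5% on VII (29.7 to 35.4). There were 42.3 close pairs per Mb on VII and 51.6 on I. Within 100 kb of an end of a linkage group lay 136 genes in close pairs (3.82%) and 209 other genes (3.39%), where 3.55% of all genes did, a difference of 0.437 points (-0.318 to 1.24). Its direction turned with 50 kb (-0.186), with 200 kb (-0.899) and with locus tags below NCU10000 (-0.131).

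H3K9me3 domains overlapped 57 genes in close pairs (1.60%, interval 1.24 to 2.07), against 154 other genes (2.50%, 2.14 to 2.92) and 2.17% of all genes. The difference was -0.893 points (-1.45 to -0.302). In the lowest list 3 of 484 genes in close pairs (0.620%, 0.211 to 1.81) were overlapped, against 62 of 1949 elsewhere (3.18%, 2.49 to 4.06). The difference was -0.295 points (-1.325 to 0.806) in the 25-50% list and -1.05 points (-2.16 to 0.0960) in the 50-75% list. In the highest list the shares were 2.39% and 2.25%. At least 50% of the gene was covered in 7 genes in close pairs and in 45 others. The median distance to the nearest domain was 42.1 kb for genes in close pairs and 36.9 kb for the others. Within the lowest list it was 38.5 kb against 30.9 kb, and within the highest list 45.6 kb against 42.7 kb. The gap limit bears on these values. A domain lay in the gap of 330 of the 7814 wider pairs and of 0 of the 767 close pairs separated by at least 1 bp. Genes on either side of such a domain cannot form a close pair across it. The part of this in the differences was not tested.

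Among close pairs reached by a domain, NCU09968 and NCU09969 on VI had the most domain sequence, at 3176 bp and 5959 bp, the whole of NCU09969. They shared 1364 bp and were in the highest and the 25-50% list. On I, NCU08578 (highest list) and NCU08579 (50-75% list) shared 2595 bp and had 3086 and 2216 bp in a domain. The domain next to the histone gene hH2B on VII reached 235 bp into hH2B and 2870 bp into its neighbour NCU02434. NCU04992 and NCU04991 on VI, 78 bp apart, had 0 and 1424 bp in a domain, and NCU16947 and NCU04676 on V, 146 bp apart, had 376 and 779 bp. Of the 49 close pairs with a gene in a domain, 8 had both genes there and 12 (24.5%) shared a list, against 45 and 117 (38.1%) of 307 such wider pairs. With or without a domain, 29.7% of all close pairs and 33.7% of all wider pairs shared a list. The share of 24.5% rests on 12 pairs, and no interval was worked out for it.

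Groups of genes were made by symbol, so genes of the same function under other symbols were not counted. Their counts are read against the 36.6% of all genes in close pairs and against the share among all genes of the same expression list and length class, a background added after the data were seen. Of 13 vma- genes of the vacuolar proton pump, the V-ATPase, which acidifies the vacuole, 11 were in a close pair (84.6%, interval 57.8 to 95.7). The share at like list and length was 44.3%, and 10 of the 11 overlapped a neighbour. The median gap of these 13 genes to their nearest neighbour was -170 bp, where it was 275 bp over all genes and 242 bp over the highest list. vma-4 shared 1207 bp with NCU07445, vma-16 lay between NCU09748 at 145 bp and NCU09746, with which it shared 359 bp, and vma-1 shared 170 bp with NCU01208. Those outside were vma-13, with a gap of 176 bp, and vma-11, with 585 bp.

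The 12 partners of V-ATPase genes comprised 4 of the highest, 6 of the 50-75% and 2 of the 25-50% list. Of the 12 pairs 4 shared a list, where 29.7% of all close pairs did. Among 29 nuo genes of respiratory complex I, the first enzyme of the mitochondrial electron transport chain, 15 were in close pairs (51.7%, interval 34.4 to 68.6), near the 48.2% at like list and length. All 29 were in the highest list, and 11 of their 18 partners were in the 25-50% list, where 28.6% of the partners of all highest-list genes in close pairs were. Of 17 proteasome genes, which encode parts of the protein-degrading 26S complex, 9 were in close pairs, 8 of them by overlap. That was 52.9% (interval 30.96 to 73.83), against 43.4% at like list and length. Of the 9 proteasome pairs 1 shared a list, where 29.7% of all close pairs did. Of 7 genes with a crp- symbol, for cytosolic ribosomal proteins, crp-2, crp-15, crp-10, crp-3 and crp-5 were in close pairs (interval 35.9 to 91.8%, against 43.7% at like list and length). The fusion gene ubi::crp-6 was not among the 7.

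Glycoside hydrolase genes, which act on polysaccharides such as cellulose and chitin, numbered 79. Of these, 20 were in a close pair (25.3%, interval 17.0 to 35.9), against 35.0% at like list and length, and the median nearest gap was 505 bp. The lowest list held 24 of the 79 and the highest list 13. The symbol groups tca- and cyt-, for the citric acid cycle and for mitochondrial function, had 6 of 16 and 3 of 9 genes in close pairs, near the share of all genes. Among them cyt-18, the mitochondrial tyrosyl-tRNA synthetase that also aids intron splicing, had a close neighbour on both sides, tca-13 at 106 bp and NCU03029 at 132 bp.

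Of the genes deleted in the study, hda-1 alone was in a close pair. It shared 788 bp with NCU01526 on II (3188073 to 3189573, 25-50% list), while hda-1 itself (3188786 to 3192710) was in the 50-75% list. The nearest neighbours of dim-5, dim-2 and hpo were 221, 264 and 840 bp away. Of 10 heterochromatin genes found, dim-7, which guides the H3K9 methyltransferase to chromatin, was the other in a close pair, sharing 690 bp with NCU04151. The count of 2 of 10 (20.0%, interval 5.67 to 51.0) stood against 38.6% at like list and length.

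Histone genes were packed closely in 4 of 7 cases (57.1%, interval 25.05 to 84.2). The interval includes the 45.1% at like list and length. hH2A shared 369 bp with NCU11258, and both were in the highest list. hH2B shared 483 bp with NCU02434, and hH4-2 shared 167 bp with NCU11174, both partners in the 50-75% list. The interval of hH2Az, a histone H2A variant gene (1387651 to 1392823), contained NCU05346 of the 25-50% list and shared 166 bp with NCU05345. hH3, the gene of the endogenous histone H3, had a nearest gap of 168 bp.

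Of 22 genes of the light response and clock, 7 were in close pairs (31.8%, interval 16.4 to 52.7). The share was 38.5% at like list and length and 36.6% over all genes. Close partners of the highest list stood beside the 3 al- genes, of carotenoid synthesis, at a gap of 138 bp for al-1, 11 bp for al-2 and -32 bp for al-3. Over the 7 close pairs of the group, the partners comprised 3 of the highest, 1 of the 50-75%, 2 of the 25-50% and 1 of the lowest list. Among all highest-list genes in close pairs, 28.4% of partners were of the highest list. The cryptochrome gene cry (highest list) shared 681 bp with NCU00583, a lowest-list gene of 716 bp. fwd-1, whose product acts in the turnover of the clock protein FRQ, shared 224 bp with NCU04541. Of 8 housekeeping genes, pma-1, the plasma membrane proton pump, and act, the actin gene, were in close pairs. For this count of 2 of 8 the interval was 7.15 to 59.1%. It includes the 37.4% at like list and length and the 36.6% over all genes. pma-1 shared 15 bp with NCU01681, a lowest-list gene of 312 bp.

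In 31 close pairs both genes carried a symbol. Among the 10 with the most overlap, qa-Y and qa-3 on VII, a quinate transporter gene and the quinate dehydrogenase gene of the quinic acid cluster, shared 422 bp and were in the 50-75% and lowest lists. ro-2 (25-50% list) shared 1091 bp with crp-15 (highest list), gh18-5 (50-75% list) shared 1223 bp with the ubiquitin fusion gene ubi::crp-6 (highest list), and pro-1 (25-50% list) shared 1134 bp with hat-1 (50-75% list). po (highest list) shared 824 bp with msh1 (50-75% list), and eat-6 (50-75% list) shared 275 bp with eat-5 (highest list). arg-12, of arginine synthesis (50-75% list), and ilv-4 (highest list) shared 206 bp. pcb-3 and nca-1, a calcium pump gene, shared 142 bp and were both in the highest list. nuo11.6 of complex I (highest list) and ilv-6 (25-50% list) shared 131 bp. Together with pro-3 and mcl-1 described above, 2 of these 10 pairs were in 1 list. Of all 31 such pairs 8 were (25.8%, interval 13.7 to 43.3), near the 29.7% of all close pairs.

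Of 6 genes of RNA silencing, 2 were in close pairs (33.3%, interval 9.68 to 70.0), against 26.5% at like list and length. These were both Dicer genes, whose products cut double-stranded RNA. Each had a close neighbour of its own list, where 29.7% of all close pairs shared a list. dcl-1 shared 37 bp with pdx-4 on IV (both highest list), and dcl-2 lay 45 bp from NCU06767 on II (both 50-75% list). The other 4 silencing genes examined, qde-1, qde-2, qde-3 and sms-2, were in no close pair.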

How the data were processed

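Positions of genes in 4 expression classes and of H3K9me3 domains, both for wild type, were deposited by the authors as interval files without values. Per the submitters' processing notes, Bowtie2, HOMER, SICER and deepTools were used; the sources used here give no version, setting or ranking unit. Coordinates are those of the files on NC12 supercontigs, named here as linkage groups, with starts moved to count from 1.

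Genes were named from an NC12 gene table: 9490 of 9729 by identical position and 238 on VI (1851685 to 2769626) by mirrored position; 1 stayed unnamed. Gaps came from all lists pooled and sorted; a gap above 0 is the number of bases between 2 genes. Another 6 overlapping couples were not consecutive and were not counted. Wilson intervals were used for shares, Newcombe intervals for differences of shares, and order-statistic intervals for medians. Gene lists used symbols; rid, CenH3, eed, suz12 and npf were not matched by symbol, and set-7, the 1 PRC2 gene found, was in no close pair.

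Members and lists were chosen with earlier results of these data known. Genes were named by rule: most shared bases, widest close and narrowest wider gaps, longest runs, symbols in both genes, list members, most domain sequence and extreme list combinations. Counting was tested on simulated pairs. Python 3.11.15, pandas 2.3.3 and scipy 1.17.1 were used.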

Additional observations from a re-analysis of the deposited data

How the results depend on the processing

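No paired analysis was possible because no values of single libraries were used and no result comes from a test. Of 86 alternatives over 6 results, 76 stayed inside the interval of the value reported. The difference in shared lists (-4.01 points) stayed negative in 19 of 20 alternatives and became 0.162 with lists at most 1 step apart; without lowest-list genes it was -0.187. Leaving out each linkage group gave -4.82 to -3.36. The lowest-list difference (-18.0 points) was -21.4 below 300 bp, -24.3 below 500 bp and -13.3 for genes longer than 1000 bp, and -19.0 to -17.3 without 1 linkage group. The length difference (-35 bp) turned to 112.5 bp with 500 bp as the limit and -333 bp without the lowest list. The domain difference (-0.893 points) was -1.57 below 300 bp and -1.84 below 500 bp. The difference at ends (0.437 points) turned to -0.899 at 200 kb, -0.186 at 50 kb and -0.131 with locus tags below NCU10000, and was 1.06 without linkage group I (interval 0.0790 to 2.10). The difference for the highest list (3.30 points) ranged from 2.51 to 4.12. The cause of these changes was not tested. Alternatives without lowest-list genes, without nested pairs and for genes longer than 1000 bp were chosen after the data were seen. The lists hold no values, so depth sets no stated limit.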

Other observations

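The longer gene of a partial overlap was in the higher list in 500 of 736 pairs with different lists (67.9%, interval 64.5 to 71.2), and in 3655 of 5180 wider pairs with different lists (70.6%, 69.3 to 71.8). The share of genes in close pairs was 27.0% among the 211 genes overlapping a domain, 33.9% under 5 kb from one, 34.0% at 5 to 20 kb, 36.8% at 20 to 50 kb and 38.8% at 50 kb or more, and the lowest list made up 30.8%, 30.2%, 27.9%, 24.97% and 22.1% of the same classes. Here too the distance to a domain is not independent of the gap limit.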
